A study of Drosophila melanogaster with 11 samples.

Results

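Contacts between sequences 1 to 10 kb apart on the same chromosome arm were measured by MicroC in whole *Drosophila melanogaster* embryos. They were chosen from the deposited counts by separation alone, as every distance bin that starts at 1000 bp or more and ends at 10000 bp or less. This gave 4 bins, 1000 to 1778, 1778 to 3162, 3162 to 5623 and 5623 to 10000 bp, each counted in 4 read orientations, or 16 of the 152 classes of separation and orientation in each library. All 16 classes are described, together with the bin just below 1 kb (562 to 1000 bp) and the bin just beyond 10 kb (10000 to 17783 bp) as neighbours. The counts are sums over the whole genome and hold no contact between named positions.

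In MicroC, chromatin is fixed and digested to nucleosomes with micrococcal nuclease, neighbouring ends are joined by ligation, and the joined fragments are sequenced from both sides. The frequency of such joints falls with distance along the chromosome, and the steepness of the fall is a common description of how chromatin is folded at each scale. Each pair of reads has one of 4 orientations: inward (the reads face each other, +-), outward (they face away from each other, -+) or same-strand (++ and --). A fragment that was never ligated gives an inward pair. A ligated pair can have any orientation, and since a read starts at the outer end of its fragment, inward pairs are recorded as farther apart, and outward pairs as closer together, than the middles of the fragments they come from, by about 1 fragment length. Over 1 to 10 kb these effects fade, and a distance at which all orientations become equally frequent is often used as the start of the range where contacts can be read without regard to orientation.

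The range from 1 to 10 kb is that of single fly genes and their nearest neighbours. Of 13962 protein-coding genes in the RefSeq annotation of the Release 6 assembly, 9280 (66.5%) span between 1 and 10 kb from end to end, with a median span of 2160 bp over all of them. The bins hold 3148, 3015, 1939 and 1178 of these spans from the shortest to the longest. At the locus altered in these flies, on chromosome arm 2R, *CG12134* (9971143 to 9972780) and *eve* (9979319 to 9980795) lie 6538 bp apart. A gap of 8421 bp separates *eIF3j* (9968929 to 9970897) from *eve*, and one of 8363 bp separates *eve* from *TER94* (9989159 to 9993559). All 3 gaps fall in the longest bin, 5623 to 10000 bp. The pair-rule gene *eve* patterns the segments of the early embryo, *eIF3j* encodes a translation initiation factor subunit and *TER94* an AAA ATPase. The counts are not resolved to this locus.

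There were 4 genotypes, each with a replacement made next to *eve*. In every one, the segment that holds the boundary element *nhomie* and an *eve* stripe enhancer was first deleted and exchanged for a marker, and a segment was then put back between the recombination sites, so that the control carries these sites too. The segment contained *nhomie* in its own orientation (*nhomie forward*, the control, 2 libraries), phage *λ DNA* in its place (3 libraries), *nhomie* inverted (*nhomie reverse*, 3 libraries) or a copy of *homie*, the boundary on the other side of *eve* (*homie forward*, 3 libraries). Embryos were collected for 4 hr and aged for 12 hr, so that they were 12 to 16 hr old, and were labelled as stage 14. Each library came from a pool of embryos and averages over all their tissues, so a change confined to some cells cannot be told apart from a smaller change in all of them. An unmodified strain was not analysed here.

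Replicates 2 and 3 of *λ DNA*, *nhomie reverse* and *homie forward* differed from each other by no more than sampling noise over the 16 classes. Their chi-square per degree of freedom was 0.859 in *λ DNA* (chi-square test, p = 0.611), 0.948 in *nhomie reverse* (p = 0.508) and 1.09 in *homie forward* (p = 0.364). Between replicates 1 and 2 of the same genotypes it was 1152, 3058 and 137. Both *nhomie forward* libraries differed by more than sampling noise (10.1 per degree of freedom), although only 0.0847% of the contacts of the range were placed differently. Replicates 2 and 3 of a genotype are called separate biological replicates in the study's methods, but were counted here as 1 sample at the mean of their values, which left 8 samples, 2 per genotype. Replicate 1 of the same genotypes stood apart in composition outside the range as well. Inward pairs under 1 kb made up 45.1% (*λ DNA*), 55.4% (*nhomie reverse*) and 50.9% (*homie forward*) of its unique contacts, against 19.8 to 34.5% in the other 8 libraries. Values are therefore given for each library, and with and without these 3 libraries.

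The 11 libraries held between 11602249 (*homie forward* replicate 1) and 101944711 contacts (*nhomie forward* replicate 2) at 1 to 10 kb. The smallest of the 176 class counts, outward pairs at 5623 to 10000 bp in *homie forward* replicate 1, was 626746, so the counting error of a single class was at most 0.126%. The differences between libraries described below are mostly far larger than that.

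Between 32.3 and 41.9% of all cis contacts at 1 kb or more lay at 1 to 10 kb. The share was 36.6 and 36.5% in the *nhomie forward* libraries. It was 36.0, 39.2 and 39.1% in replicates 1, 2 and 3 of *λ DNA*, 32.3, 36.7 and 36.7% in those of *nhomie reverse*, and 37.8, 41.9 and 41.9% in those of *homie forward*. Replicate 1 was the lowest library of its genotype in all 3 genotypes that have a replicate 3, and its difference from the mean of replicates 2 and 3 was -3.15 points in *λ DNA*, -4.35 points in *nhomie reverse* and -4.11 points in *homie forward*. The *homie forward* libraries held the 2 highest shares, and *nhomie reverse* replicate 1 the lowest. The 95% Wilson interval of a share extends at most 0.0172 points to either side, for counting error only.

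**Figure D1:**
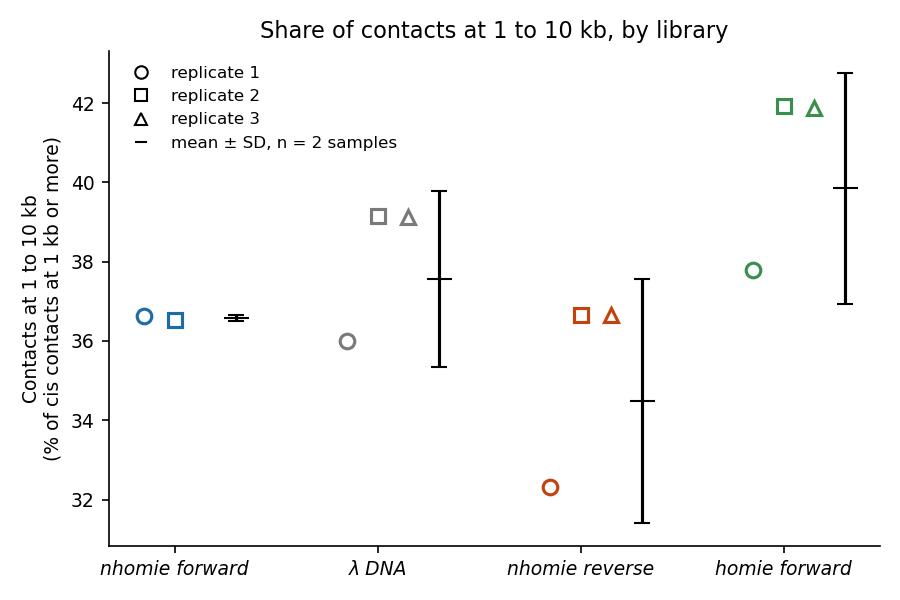
Contacts at 1 to 10 kb as a percent of those at 1 kb or more on the same arm, for each of the 11 libraries by genotype, with the mean ± SD of each genotype's 2 samples as black bars; the axis does not start at 0. The shares run from 32.3% in *nhomie reverse* replicate 1 to 41.9% in *homie forward* replicates 2 and 3, and within *λ DNA*, *nhomie reverse* and *homie forward* replicate 1 sits below the others, at 36.0, 32.3 and 37.8%.

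Genotypes were compared over the 8 samples, to ask whether replacing 1 boundary went with a different profile of short contacts over the genome. In *λ DNA*, *nhomie reverse* and *homie forward*, 1 of the 2 samples is the replicate 1 library that stands apart. *nhomie forward* has no such library, so genotype cannot be told apart from this difference between libraries in any genotype mean or SD given here. The mean share was 36.6% ± 0.0769 (SD, n = 2) in *nhomie forward*, 37.6% ± 2.23 in *λ DNA*, 34.5% ± 3.08 in *nhomie reverse* and 39.8% ± 2.91 in *homie forward* (n = 2 each). The highest and the lowest mean were 5.37 points apart, and in *nhomie reverse* replicate 1 differed from the mean of the other replicates by -4.35 points. The difference did not pass the test (two-sided exact permutation test of the F ratio over 2520 assignments, p = 0.286, adjusted p = 0.486 over the 12 measures compared). The smallest p this design allows is 0.00952, which for 1 measure alone becomes an adjusted p of 0.114, so that a call needs at least 3 of the 12 measures at that p. The order of the genotypes also turned with the denominator. *nhomie forward* was the highest as a percent of all cis contacts (7.39 points above *nhomie reverse*) and of all unique contacts (7.48 points above it). Both gaps rest largely on *nhomie reverse* replicate 1. It was at 9.26% of all cis contacts, against 22.97 and 22.85% in replicates 2 and 3. The *nhomie forward* libraries were still the highest, at 23.3 and 23.6%. Of all unique contacts, *nhomie reverse* replicate 1 was at 7.97% and replicate 3 at 19.9%, against 21.3 and 21.6% in *nhomie forward*. A share that misses the threshold with 2 samples per genotype is not shown to be equal between genotypes.

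Set against *nhomie forward* within each replicate number, the 3 other genotypes moved differently in replicates 1 and 2 relative to cis contacts at 1 kb or more. The labels do not say what a replicate number shares, so the libraries are not known to be matched. Both *nhomie forward* libraries differed by 0.109 points, so these contrasts largely restate replicate 1 against replicate 2 of each genotype. The share in *λ DNA* was 0.639 points lower in replicate 1 and 2.64 points higher in replicate 2. That in *nhomie reverse* was 4.32 points lower in replicate 1 and 0.144 points higher in replicate 2. With this denominator only *homie forward* was on one side in both, 1.16 points higher in replicate 1 and 5.40 points higher in replicate 2. As a percent of all cis contacts, *λ DNA*, *nhomie reverse* and *homie forward* were all below *nhomie forward* in both. They were at 15.0, 9.26 and 13.2% against 23.3% in replicate 1, and at 22.2, 23.0 and 20.3% against 23.6% in replicate 2. These comparisons all use the same *nhomie forward* libraries and are not independent of each other. Without the 3 replicate 1 libraries that stand apart, the shares of cis contacts at 1 kb or more ran from 36.5 to 41.9%. In these shares *nhomie reverse* was next to *nhomie forward*, *λ DNA* above both and *homie forward* above *λ DNA*. Each of those 3 genotypes then has 1 sample, and the order has no replicate check.

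Contacts per kb were 6.28 (*λ DNA* replicate 1) to 7.56 times (*homie forward* replicate 3) as frequent in the shortest bin as in the longest. At 1000 to 1778 bp the libraries held between 12.0% (*nhomie reverse* replicate 1) and 15.5% (*homie forward* replicate 2) of cis contacts at 1 kb or more per kb of separation, with a median of 12.4%. At 1778 to 3162 bp the values ran from 6.05 to 7.96% per kb (median 6.87%), at 3162 to 5623 bp from 3.07 to 4.01% per kb (median 3.66%), and at 5623 to 10000 bp from 1.60 to 2.05% per kb (median 1.96%). The same libraries marked both ends of the range in every bin, *nhomie reverse* replicate 1 the lower and *homie forward* replicate 2 the upper.

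The libraries came closer together with distance once the 3 replicate 1 libraries were left out. Among the other 8, the highest level was 1.26 times the lowest at 1000 to 1778 bp, 1.17 times at 1778 to 3162 bp, 1.10 times at 3162 to 5623 bp and 1.06 times at 5623 to 10000 bp. With all 11 libraries the ratio was between 1.28 and 1.31 in all 4 bins, *nhomie reverse* replicate 1 being the lowest library each time.

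By genotype and relative to cis contacts at 1 kb or more, *homie forward* had the highest mean in each of the 4 bins and *nhomie reverse* the lowest. This order turned with the denominator. As a share of all unique contacts, *nhomie forward* was highest in each bin, 0.210 to 0.250 above *nhomie reverse* on the log10 scale. These gaps too rest largely on *nhomie reverse* replicate 1. It held 7.97% of its unique contacts at 1 to 10 kb, against 19.9% in replicate 3. Relative to cis contacts at 1 kb or more and without *nhomie reverse* replicate 1, *nhomie forward* was the lowest in the first 3 bins. At 1000 to 1778 bp the means were 12.4% ± 0.0490 per kb in *nhomie forward*, 13.0% ± 1.29 in *λ DNA*, 12.2% ± 0.261 in *nhomie reverse* and 14.6% ± 1.23 in *homie forward* (SD, n = 2 samples each). At 5623 to 10000 bp they were 1.96% ± 0.00132, 1.96% ± 0.0336, 1.77% ± 0.239 and 1.98% ± 0.107 in the same order. None of the 4 bins passed the test on the log10 scale, with p = 0.248, 0.305, 0.686 and 0.495 from the shortest to the longest (two-sided exact permutation tests) and adjusted p between 0.486 and 0.686.

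The decay was described by the slope between neighbouring bins on log10 scales, where a slope of -1 means that contacts per bp fall in inverse proportion to separation. All slopes within the range lay between -1.19 and -1.02. From the first to the second bin they were -1.04 and -1.03 in *nhomie forward*, -1.03, -1.10 and -1.10 in replicates 1, 2 and 3 of *λ DNA*, -1.19, -1.02 and -1.02 in those of *nhomie reverse* and -1.15, -1.16 and -1.16 in those of *homie forward*. The *homie forward* libraries and *nhomie reverse* replicate 1 were the 4 steepest, so that *nhomie reverse* held both the steepest and the shallowest of the 11 slopes.

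The slope changed little over the range. From the second bin to the third its median over the libraries was -1.15, with a range of -1.19 to -1.08, and from the third bin to the fourth -1.12, with a range of -1.16 to -1.07. In 10 of 11 libraries the curve was steeper between the second bin and the third than between the first and the second, the exception being *nhomie reverse* replicate 1 (-1.19 and then -1.18). Just outside the range, the slope from 562 to 1000 bp into the first bin was shallower in every library, at -1.07 to -0.873. From the last bin into 10000 to 17783 bp it was -1.16 to -1.08.

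**Figure D2:**
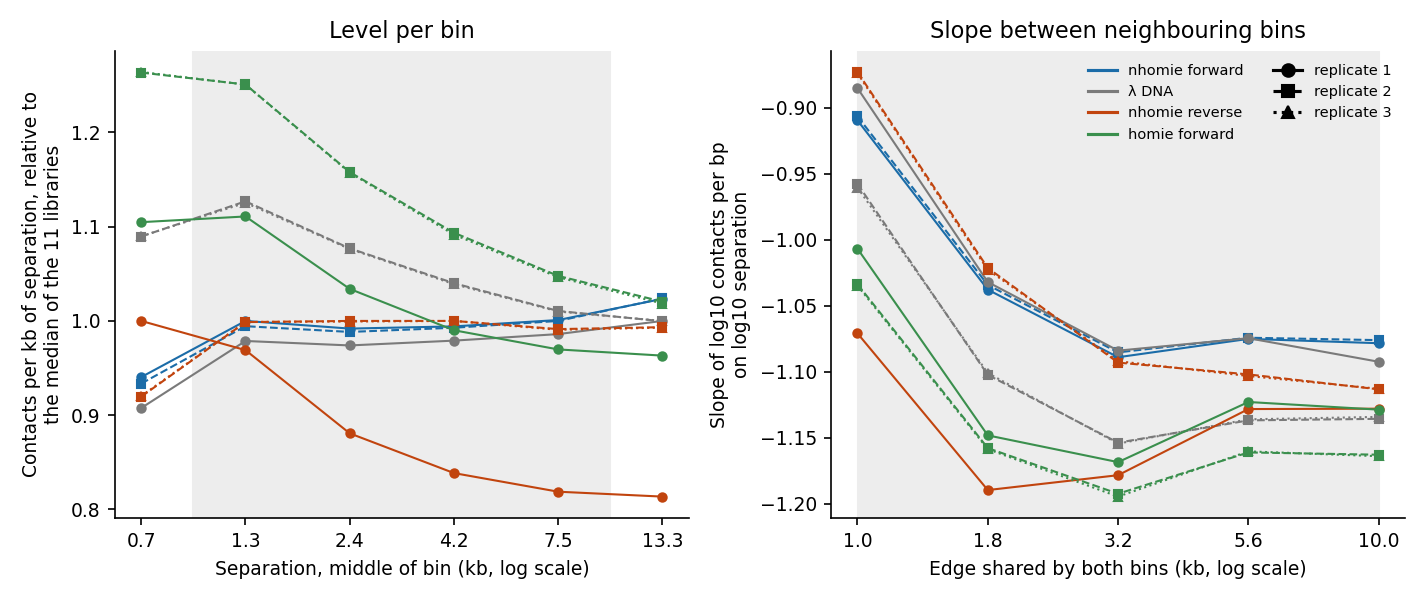
Left, contacts per bp in each separation bin, divided by the median of the 11 libraries in that bin; right, slope between neighbouring bins on log10 scales (unitless), both against separation in kb on a log axis (right, the edge shared by both bins), with 1 line per library, colours for genotypes, markers for replicates and 1 to 10 kb in grey. The levels of the *homie forward* replicates 2 and 3 come down towards the others with distance, *nhomie reverse* replicate 1 falls below them, and the slopes at the 3 inner edges lie between -1.19 and -1.02.

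The mean slope from the first to the second bin was -1.04 ± 0.00249 in *nhomie forward*, -1.07 ± 0.0492 in *λ DNA*, -1.11 ± 0.118 in *nhomie reverse* and -1.15 ± 0.00711 in *homie forward* (SD, n = 2 samples each). The order was the same at the other steps, with means of -1.09 ± 0.00261, -1.12 ± 0.0495, -1.14 ± 0.0607 and -1.18 ± 0.0177 between the second bin and the third, and -1.07 ± 0.000621, -1.11 ± 0.0437, -1.12 ± 0.0181 and -1.14 ± 0.0267 between the third bin and the fourth. The 3 slopes of a library share bins and are not separate evidence for this order. The place of *nhomie reverse* in it rests on replicate 1. In the mean of replicates 2 and 3, *nhomie reverse* was shallower than *λ DNA* at each step. The slopes were -1.02 against -1.10, -1.09 against -1.15 and -1.10 against -1.14. None of the 3 slopes passed the test between genotypes, with p = 0.429, 0.238 and 0.276 (two-sided exact permutation tests) and adjusted p of 0.514, 0.486 and 0.486.

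Split by orientation, the inward pairs fell most steeply and the outward pairs least at each step within the range, except between the third bin and the fourth in *nhomie reverse* replicate 1, where inward pairs (-1.13) fell no more steeply than same-strand pairs. From the first to the second bin the slope of inward pairs was between -1.31 and -1.11 (median -1.20), that of outward pairs between -1.08 and -0.945 (median -1.01), and those of the ++ and -- pairs lay between, with medians of -1.09 each. From the third bin to the fourth the medians had come together, at -1.13 for inward, -1.10 for outward, -1.13 for ++ and -1.13 for -- pairs. In the first of these steps *nhomie reverse* replicate 1 and the *homie forward* libraries were the 4 steepest for inward and outward pairs alike.

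In every library and every bin of the range, inward pairs were the most frequent orientation, outward pairs the least, and both same-strand orientations lay close to the mean of the 4. In *nhomie forward* replicate 1 at 1000 to 1778 bp, inward pairs were 12.5% above that mean, outward pairs 10.7% below it (-10.7%), and ++ and -- pairs at -0.876 and -0.938%. At 5623 to 10000 bp in the same library the values were 2.08% for inward, -1.78% for outward, -0.146% for ++ and -0.154% for -- pairs. Over the 11 libraries inward pairs stood 11.5 to 14.9% above the mean in the first bin, 5.89 to 7.48% in the second, 3.44 to 5.11% in the third and 2.04 to 5.01% in the fourth. Outward pairs stood at -12.0 to -9.61%, -6.69 to -5.31%, -3.45 to -2.91% and -2.44 to -1.60%.

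The 2 same-strand orientations are mirror images of each other and were compared as a check on the counting. In 44 comparisons of ++ with -- pairs, 1 per library and bin, the difference was between -0.458 and 0.243%. An exact binomial test gave p under 0.05 in 6 of the 44 and an adjusted p under 0.05 in 0. The ++ pairs were the more frequent in 35 of the 44, each taken alone mostly by an amount within counting error. This lean towards ++ pairs was not tested over the bins together, so a small bias common to them is not excluded. The comparisons of replicates 2 and 3 of a genotype are not independent of each other.

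The imbalance, the highest minus the lowest of the 4 orientations as a percent of their mean, fell 1.75- to 1.97-fold from the first bin to the second and 1.67- to 1.91-fold from the second to the third. At 1000 to 1778 bp it was 23.2 and 23.2% in *nhomie forward*, 21.1, 23.2 and 23.5% in *λ DNA*, 26.9, 22.1 and 22.2% in *nhomie reverse* and 25.1, 26.6 and 26.6% in *homie forward*. In the second bin it ran from 11.2% (*λ DNA* replicate 1) to 14.1% (*homie forward* replicate 2), with a median of 12.7%. In the third it ran from 6.38% (*λ DNA* replicate 1) to 8.16% (*nhomie reverse* replicate 1), with a median of 6.93%. *λ DNA* replicate 1 was the most even library in these 3 bins.

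The libraries parted at 5623 to 10000 bp. The imbalance was 3.87 and 3.77% in *nhomie forward*, 4.40, 4.02 and 4.10% in *λ DNA*, 7.45, 4.28 and 4.18% in *nhomie reverse* and 5.30, 4.77 and 4.66% in *homie forward*. Replicate 1 was the highest library in each of the 3 genotypes where it stands apart, and *nhomie reverse* replicate 1, at 7.45%, had come down 1.09-fold from the bin before, against a median of 1.62-fold over the 11 libraries. Without the 3 libraries the range was 3.77 to 4.77%. In the bin just beyond 10 kb, all 11 libraries were at 1.42 to 2.10%, *nhomie reverse* replicate 1 among them at 1.84%.

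Genotype means of the imbalance did not pass the test in any bin. In the third bin they were 6.61% ± 0.0311 in *nhomie forward*, 6.52% ± 0.196 in *λ DNA*, 7.58% ± 0.807 in *nhomie reverse* and 7.41% ± 0.0795 in *homie forward* (SD, n = 2 samples each), which gave the lowest p of all 12 measures (two-sided exact permutation test, p = 0.152, adjusted p = 0.486). At 1000 to 1778, 1778 to 3162 and 5623 to 10000 bp p was 0.429, 0.267 and 0.324 in the same exact test, with adjusted p of 0.514, 0.486 and 0.486.

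The 4 orientations did not become equal anywhere between 1 and 10 kb. With equality set as every orientation within 1% of the mean of the 4, in that bin and in all later bins of the range, it was reached in 0 of 11 libraries. When the search went on to 1 Mb, the orientations became equal from 10000 to 17783 bp on in 6 libraries, both of *nhomie forward*, replicates 1 and 2 of *λ DNA* and replicates 1 and 2 of *homie forward*. In the other 5, *λ DNA* replicate 3, all of *nhomie reverse* and *homie forward* replicate 3, they did so from 17783 to 31623 bp. Replicates 2 and 3 of *λ DNA*, and those of *homie forward*, fell on different sides although they agree within sampling noise, so a difference of 1 bin is within the resolution of this measure. At a tolerance of 2%, all 11 libraries became equal at 10000 to 17783 bp. At 5%, 10 libraries did so at 3162 to 5623 bp, and *nhomie reverse* replicate 1 at 10000 to 17783 bp. A chi-square test of equal counts was failed by every library in every bin from 1 to 10 kb, where even the least frequent class held 626746 contacts.

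The imbalance was also expressed as a distance, namely how far the inward pairs would have to be moved down and the outward pairs up in separation for their curves to coincide. This shift was computed from the ratio of inward to outward pairs and the slope of the same-strand pairs around the bin. It was 144 to 157 bp at 1000 to 1778 bp (median 152 bp), 124 to 140 bp at 1778 to 3162 bp (median 136 bp) and 120 to 144 bp at 3162 to 5623 bp (median 129 bp). While the imbalance fell 3.13- to 3.62-fold from the first bin to the third, the shift stayed within 120 to 157 bp. Its counting error in these bins was at most 3.19 bp (SD), so part of the decline from the first bin to the third is larger than counting error. From the third bin to the fourth the shift did not decline further but was higher in every library. In *nhomie forward* it went from 127 to 132 bp and from 126 to 129 bp.

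In the bin of 5623 to 10000 bp the shift was 132 and 129 bp in *nhomie forward*, 149, 130 and 133 bp in *λ DNA*, 242, 142 and 139 bp in *nhomie reverse* and 173, 151 and 147 bp in *homie forward*, with counting errors of 1.98 to 5.80 bp. Replicate 1 of *nhomie reverse* stood far above the other libraries of its own genotype, and those of *λ DNA* and *homie forward* stood above theirs. Without the 3 replicate 1 libraries the range was 129 to 151 bp. At 10000 to 17783 bp the shift was 82.7 to 122 bp in all 11 libraries, with *nhomie reverse* replicate 1 at 108 bp. Counting errors were larger in that bin, at 3.55 to 10.7 bp, the highest in *homie forward* replicate 1, which had the shift of 82.7 bp. The shift was not tested between genotypes. It assumes equal and opposite moves of inward and outward pairs. At 5623 to 10000 bp the sum of both exceeded the same-strand pairs by 2.61% in *nhomie reverse* replicate 1, against 0.132% from such moves. In *homie forward* replicate 1 it was 1.64% against 0.0671%, and in *λ DNA* replicate 1 1.21% against 0.0473%. The sum was above what such moves give in every library, also in *nhomie forward* replicate 1 (0.301% against 0.0369%). The shifts of this bin, 242, 173 and 149 bp included, are therefore not equal moves of both orientations alone in any library.

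**Figure D3:**
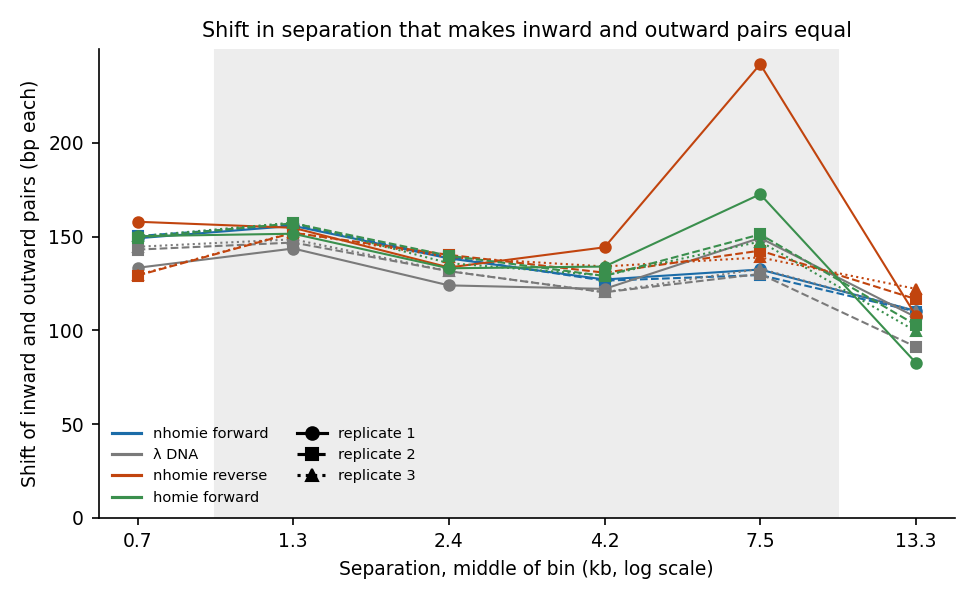
Shift in bp that brings inward and outward pairs to the same curve, against separation in kb on a log axis, for each library, with colours for genotypes, markers for replicates and 1 to 10 kb in grey; counting errors are not drawn. From 1000 to 5623 bp the libraries lie between 120 and 157 bp. At 5623 to 10000 bp every library lies above its value in the bin before. There *nhomie reverse* replicate 1 rises to 242 bp and *homie forward* replicate 1 to 173 bp. The shift assumes equal and opposite moves of inward and outward pairs, which no library fully meets in that bin.

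A shift moves inward and outward pairs in opposite directions and leaves their sum nearly where the same-strand pairs are. The excess of that sum over the same-strand pairs was therefore taken as a second quantity. It was above 0 in all 44 combinations of library and bin. In the first bin it was 1.83 to 3.05% of the same-strand pairs, of which the curvature of the decay under the shift itself gives 1.16 to 1.73%. In the second bin the excess was 0.536 to 1.34%, against 0.314 to 0.470% given by the shift. In the third it was 0.245 to 2.09%, against 0.100 to 0.156%, and in the fourth 0.301 to 2.61%, against 0.0352 to 0.132%. At 5623 to 10000 bp the excess of each library was thus several times what the shift gives.

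The excess of the fourth bin separated the libraries most. It was 0.301 and 0.317% in *nhomie forward*, 1.21, 0.501 and 0.471% in *λ DNA*, 2.61, 0.449 and 0.412% in *nhomie reverse* and 1.64, 0.482 and 0.613% in *homie forward*, with counting errors of 0.0409 to 0.125 points (SD). The 3 replicate 1 libraries were the 3 highest, at 1.21% or more, and the other 8 lay at 0.301 to 0.613% without overlap. Just beyond 10 kb the excess was back at -0.0877 to 0.407% in the 11 libraries. The same 3 libraries also had the most inward pairs under 1 kb, at 45.1, 55.4 and 50.9% of unique contacts.

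Divided by the number of inward pairs under 1 kb instead, the excess of the fourth bin varied less between libraries. There were 0.358 and 0.404 excess contacts per 1000 such pairs in *nhomie forward*, 0.423, 0.422 and 0.389 in *λ DNA*, 0.403, 0.486 and 0.438 in *nhomie reverse* and 0.420, 0.287 and 0.353 in *homie forward*. The highest of these was 1.69 times the lowest, while the excess as a percent of same-strand pairs spanned 8.66-fold. In the third bin the range was 0.204 to 0.466 per 1000 (2.29-fold, against 8.50-fold as a percent). In the shorter bins the division widened the spread. At 1778 to 3162 bp the range was 0.222 to 0.846 per 1000 (3.81-fold, against 2.50-fold as a percent), with the 3 replicate 1 libraries lowest. In the first bin, where most of the excess is given by the shift, it was 0.626 to 2.60 per 1000 (4.15-fold, against 1.67-fold as a percent), again with the 3 replicate 1 libraries lowest at 0.626 to 0.866. Whether the excess at 5623 to 10000 bp comes from the same molecules as the inward pairs under 1 kb was not tested.

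**Figure D4:**
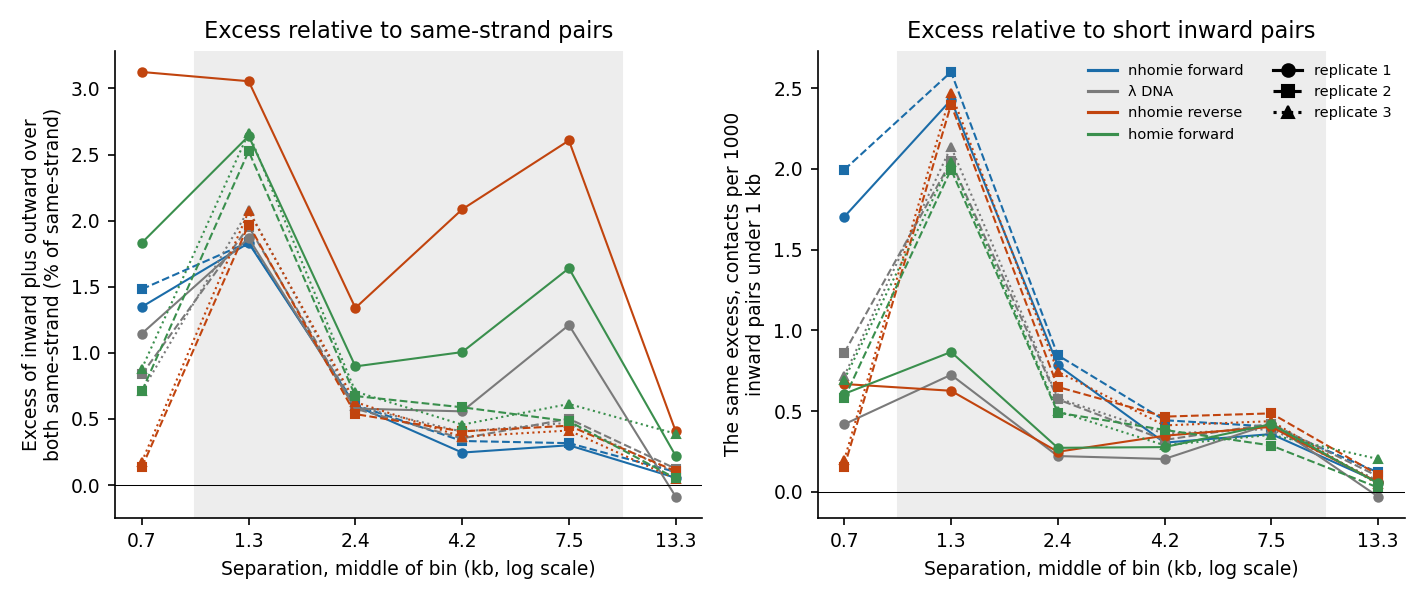
Excess of inward plus outward over same-strand pairs against separation in kb on a log axis, for each library, as a percent of same-strand pairs (left) and per 1000 inward pairs under 1 kb (right), with 1 to 10 kb in grey. At 5623 to 10000 bp the replicate 1 libraries of *λ DNA*, *nhomie reverse* and *homie forward* are the highest on the left, at 1.21, 2.61 and 1.64%, and lie among the others on the right, at 0.403 to 0.423.

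To set these contacts against those between different chromosomes, the frequency of each bin per pair of bases was divided by that of contacts between chromosomes 2 and 3. At 1000 to 1778 bp it was 10779-fold (*nhomie reverse* replicate 1) to 51401-fold (*homie forward* replicate 2) higher, with a median of 34241-fold. At 5623 to 10000 bp it was 1441-fold (*nhomie reverse* replicate 1) to 7343-fold (*nhomie forward* replicate 1) higher, with a median of 4862-fold. In the longest bin the *nhomie forward* libraries stood at 7343- and 7241-fold, *λ DNA* at 3813-, 4875- and 4862-fold, *nhomie reverse* at 1441-, 4356- and 4341-fold and *homie forward* at 3346-, 6813- and 6785-fold. Over the 4 bins the libraries differed 4.77- to 5.10-fold in this ratio, against at most 1.31-fold in the level relative to other cis contacts. The ratio moves with the share of unique contacts at 1 to 10 kb as well as with that of contacts between different arms. The share at 1 to 10 kb was 7.97% in *nhomie reverse* replicate 1 and 11.9 to 21.6% in the other libraries. The share between arms was 13.8% in *nhomie reverse* replicate 1, 12.9% in its replicate 2 and 7.23 to 12.9% in all other libraries. The ratio was not tested between genotypes. Without the 3 replicate 1 libraries it ran from 4341- to 7343-fold in the longest bin, with *nhomie reverse* lowest, then *λ DNA*, *homie forward* and *nhomie forward*.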

How the data were processed

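Each library was aligned by the authors with BWA-MEM to a genome of its own genotype edited from Release 6 (dm6). Pairs were parsed, sorted and de-duplicated with Pairtools, and pairs of which only 1 read mapped or with a mapping quality under 3 were dropped. Versions are not given in the sources used here. The deposited values are statistics of other kinds mixed in 1 column, of which raw counts of pairs by separation, orientation and chromosome arm were used, without normalization and before replicates were merged. The deposited fractions were not used.

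From these counts, levels, slopes, imbalances, shifts and excesses were computed per library in Python 3.11.15 (scipy 1.17.1, numpy 2.4.6, figures by matplotlib 3.10.9). Levels are percents of cis contacts at 1 kb or more per bp of bin. Slopes use the geometric middles of bins. The shift assumes a power law within each bin, with the slope of same-strand pairs over the bin and its neighbours. It also assumes equal and opposite moves of inward and outward pairs. The 12 measures were compared by two-sided exact permutation tests of the F ratio over 8 samples, with Benjamini-Hochberg adjustment and a threshold of 0.05. All 16 classes were reported, and no genes were measured or chosen. Classes of a library add up to its total, so no count model was fitted across them. The permutation test, the slopes and the shift were tested on simulated data. Members and measures were chosen with earlier results of these data known, and the shift and excess after the orientation values had been seen. Unique contacts per library were between 87012109 and 472473246, which leaves counting errors small beside the spread between libraries. Alternatives were all 11 libraries as samples, the replicate number as a block, each library left out, other denominators and scales, and other tolerances of equality.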

Additional observations from a re-analysis of the deposited data

How the results depend on the processing

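None of the 12 measures passed an adjusted threshold of 0.05 under any of the 202 values from alternatives (exact permutation tests, lowest adjusted p = 0.0903), and 6 of the 202 had p under 0.05. This says little about stability: with 7 or 8 samples 1 measure alone can reach an adjusted p of 0.114 at best, and with the block on 8 samples 0.5, so that 3 and 11 of the 12 measures would have to be at the smallest p for a call. With all 11 libraries as samples, 2 of 12 measures had p under 0.05, the level at 1000 to 1778 bp (exact p = 0.0284, adjusted p = 0.139) and the imbalance at 3162 to 5623 bp (exact p = 0.0469, adjusted p = 0.139), but this counts replicates 2 and 3 as separate samples. Leaving out each library in turn gave p between 0.0286 and 0.971 in exact tests, the lowest for the imbalance at 3162 to 5623 bp without *nhomie reverse* replicate 1. Other denominators, scales and subsets of orientations gave p of 0.133 to 0.686, but the order of the genotypes turned. The share at 1 to 10 kb was highest in *homie forward* (5.37 points above *nhomie reverse*), but highest in *nhomie forward* as a percent of all cis contacts (7.39 points above *nhomie reverse*) or of all unique contacts (7.48 points). As a percent of cis contacts from 1 kb to 1 Mb, and without *nhomie reverse* replicate 1, *homie forward* was highest and *nhomie forward* lowest. A tolerance of 5% moved the number of libraries whose orientations became equal within 1 to 10 kb from 0 to 10; a wider tolerance is met at shorter distances by construction. A first-order formula gave median shifts of 155, 138, 131 and 145 bp in the 4 bins, against 152, 136, 129 and 142 bp.

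The replicate numbers did not pair the samples in the shape of their profiles over these 16 classes. Deviations of same-numbered libraries from their genotype means correlated between -0.952 and 0.955, and 5 of 15 correlations were over 0.1. Deviations within a genotype cancel out, so the 15 correlations are not independent. They also leave out each library's mean level, so they cannot show a level that same-numbered libraries share. Replicate 1 minus the mean of the other replicates was -3.15 points of the share in *λ DNA* and -4.35 points in *nhomie reverse*. It was -4.11 points in *homie forward* and 0.109 points in *nhomie forward*. Permuting within replicate numbers (a block), the 8 samples gave p of 0.167 to 0.583 (exact test, smallest possible p 0.0417). With the block and all 11 libraries, 3 of 12 measures had p under 0.05: the share at 1 to 10 kb (exact p = 0.0208), the level at 1000 to 1778 bp (0.0104) and that at 1778 to 3162 bp (0.0226), each with an adjusted p of 0.0903. The labels do not say what a replicate number shares.

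With 2 samples per genotype, the number of samples and not the depth limits every comparison between genotypes. The 3 replicate 1 libraries with many inward pairs under 1 kb are also the 3 with the fewest contacts at 1 to 10 kb. *nhomie forward* has no library of that kind, which also limits its comparison with the other genotypes.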
